A study of Mus musculus with 8 samples.

Results

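Mitochondrial ribosomal protein genes were described in RNA sequencing of multipotent progenitors (MPPs), blood-forming cells downstream of the long-term stem cell that still give rise to every blood lineage. The 77 genes were those whose symbol is Mrpl or Mrps followed by a number, with a mean normalised read count of at least 10 over the 8 libraries. They came from 81 such rows in a table of 37980 genes, 17710 of them with a value above 0 somewhere. The other 4 rows were pseudogenes, and Mrpl33 was not analysed here. By symbol, 48 members were Mrpl and 29 were Mrps genes. By the subunit that holds the protein, 50 were counted as large and 27 as small, because Mrps18a and Mrps30 encode proteins of the large subunit. Mrps36 was kept by the rule, although its protein is now assigned to the 2-oxoglutarate dehydrogenase complex.

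Each library was made from polyA RNA of 1000 MPPs sorted from C57BL/6 bone marrow as Lin-, CD48-, c-kit+, Sca1+, CD135+ and CD150- cells. The NA group (4 libraries) came from NA LSL/+; Vav-Cre mice. In these mice Cre under Vav control, active in blood cells, releases a NUP98-HOXA10hd fusion (NA) that joins part of a nuclear pore protein to the homeodomain of HOXA10. The WT group (4 libraries) came from wild-type mice without the fusion, and neither the ages of the mice nor the number of mice behind the libraries is given in the sources used here. The p-values therefore measure the spread between these libraries, which may be partly technical.

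The mitoribosome translates the few mRNAs that the mitochondrial genome still carries, all of which encode membrane subunits of the respiratory chain and ATP synthase. Its RNAs are mitochondrial, whereas every one of its proteins is encoded in the nucleus, made in the cytosol and imported. Some of these proteins have bacterial counterparts and others were gained by mitochondria. The small subunit decodes the mRNA and the large subunit forms the peptide bond. Blood stem cells are known to rely little on respiration, and mitochondria become more active as progenitors divide and differentiate.

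The libraries held an estimated 3876796 to 4916957 reads. Each library was set against the best weighted sum of the other 3 libraries of its group over 5777 genes. The fourth WT library lay nearest to such a sum, with a median deviation of 5.11% where counting error gives 4.22%. The fourth NA library had the smallest deviation of its group, 7.51% with a counting error of 4.80%, but the first WT library was nearer still, at 7.25%, with nearly all of its weight on the fourth WT library. The other 5 libraries had 8.55% to 12.9%. Counts of calls are also given without the fourth libraries of both groups. Hoxa10 was higher in NA MPPs (mean 324 against 139, limma adjusted p = 2.57e-05), but reads of the fusion and of the gene itself cannot be told apart. Xist was at 869 to 1285 in WT and at most 2.80 in NA libraries, and 4 Y-linked genes were high only in NA, so genotype and sex cannot be told apart. Among marker lists of other cells, summed levels did not overlap for the erythroid list (NA 29.5 to 59.2, WT 145 to 260, with Alas2 at 0), the granulocyte list (NA 1383 to 1696, WT 1744 to 2584, with Elane at 0) or the monocyte and macrophage list (NA 0.923 to 8.46, WT 11.4 to 37.4, with F13a1 at 0). Most of the erythroid sum came from Hbb-bt and most of the granulocyte sum from Prtn3, so these 2 gaps are mainly those of 1 gene each. Few genes of the 3 lists passed the filter on low values. Of these, 1 erythroid gene was tested and called lower, and 2 of 3 tested granulocyte genes were called lower. No gene of the monocyte and macrophage list was tested. Lck, the 1 gene of a T cell list that was tested, was lower in NA (log2 fold change -0.64, limma adjusted p = 0.037), with 4 genes of that list at 0, among them Cd3e. The summed level of the T cell list was 112 to 187 in NA and 162 to 294 in WT libraries. Of the sorting markers Cd48 and Ly6a were called lower. The part of these differences in the results below was not tested.

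Mitoribosomal protein mRNAs took a smaller share of NA than of WT libraries. The share was 0.323%, 0.308%, 0.334% and 0.315% of normalised counts in the 4 NA libraries and 0.390%, 0.359%, 0.374% and 0.379% in the 4 WT libraries. All 4 NA libraries were below all 4 WT libraries, with means of 0.320% ± 0.0114 and 0.375% ± 0.0129 (SD, n = 4). The share also depends on the total of normalised counts, which was larger in NA (4.53e+06 to 4.62e+06) than in WT libraries (4.24e+06 to 4.49e+06). The sum over members, free of that total, was 14670 ± 413 in NA and 16402 ± 210 in WT (SD, n = 4), also without overlap. The widest 95% Wilson interval of a single share was ± 0.00608 percentage points, which covers counting error only. In a bulk sample, fewer cells that express a gene and less RNA per cell cannot be told apart. Both subunits were lower: the large subunit genes summed to 9867 ± 435 normalised counts in NA and 11090 ± 78.8 in WT, and the small subunit genes to 4803 ± 62.1 and 5312 ± 155 (SD, n = 4). Neither sum overlapped between groups. The ratio of large to small sums did overlap, at 1.93 to 2.15 in NA and 2.03 to 2.16 in WT libraries.

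**Figure D1:**
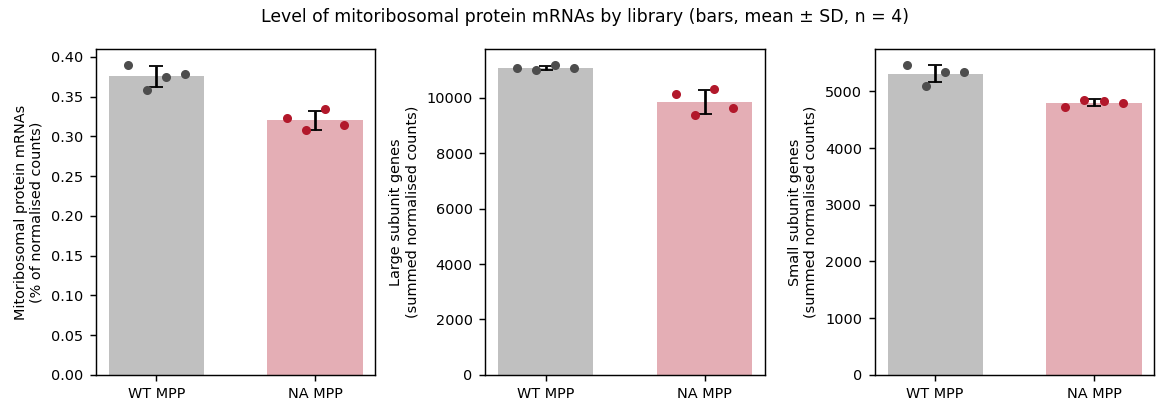
The share of normalised counts from the 77 genes and the summed normalised counts of the large and the small subunit genes, by library (points), with bars for the mean and error bars for the SD (n = 4). In each panel the 4 NA libraries sit below the 4 WT libraries, for example at 0.308% to 0.334% against 0.359% to 0.390%.

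Gene by gene, the log2 fold change of NA against WT was below 0 for 56 of 77 members, where 51.2% of all 11451 genes tested were below 0. The median over members was -0.18, and over all genes -0.011. The first quartile over members was -0.41 and the third quartile was 0.015. Fold changes are on the log2(normalised count + 1) scale. All 77 members passed the filter on low values and stood at 10 or more in every library, so none entered through 1 group alone.

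Of the 77 members, 11 fell and 1 rose in NA MPPs (limma, adjusted p below 0.05 with adjustment over all genes tested). Among all genes tested 17.9% were called, 10.1% as higher and 7.87% as lower. The falls were modest, with a ratio of group means between 0.599 and 0.767. Without the fourth libraries of both groups no member was called lower and 1 was called higher, where 1.27% and 3.31% of all genes were. At an unadjusted p below 0.05 that limma fit had 13 members lower and 1 higher, and 9.04% of all genes lower. Without them the 11 genes had log2 fold changes of -0.74 to -0.45, and their adjusted p ran from 0.061 to 0.26. The count of falls was 4 without the fourth NA library, 3 without the fourth WT library, 7 without the first WT library and 17 without the third NA library. Over all 11451 genes tested 450, 478, 628 and 1001 were called lower in these fits, against 901 in the main fit. Among the 22 alternative settings, Mrps28 lost its call in 12, Mrps12 in 10, Mrpl20 in 9 and Mrpl51 in 8, and the other 7 genes that fell lost theirs in 1 to 6. The median over members stayed below 0 in each of them.

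**Figure D2:**
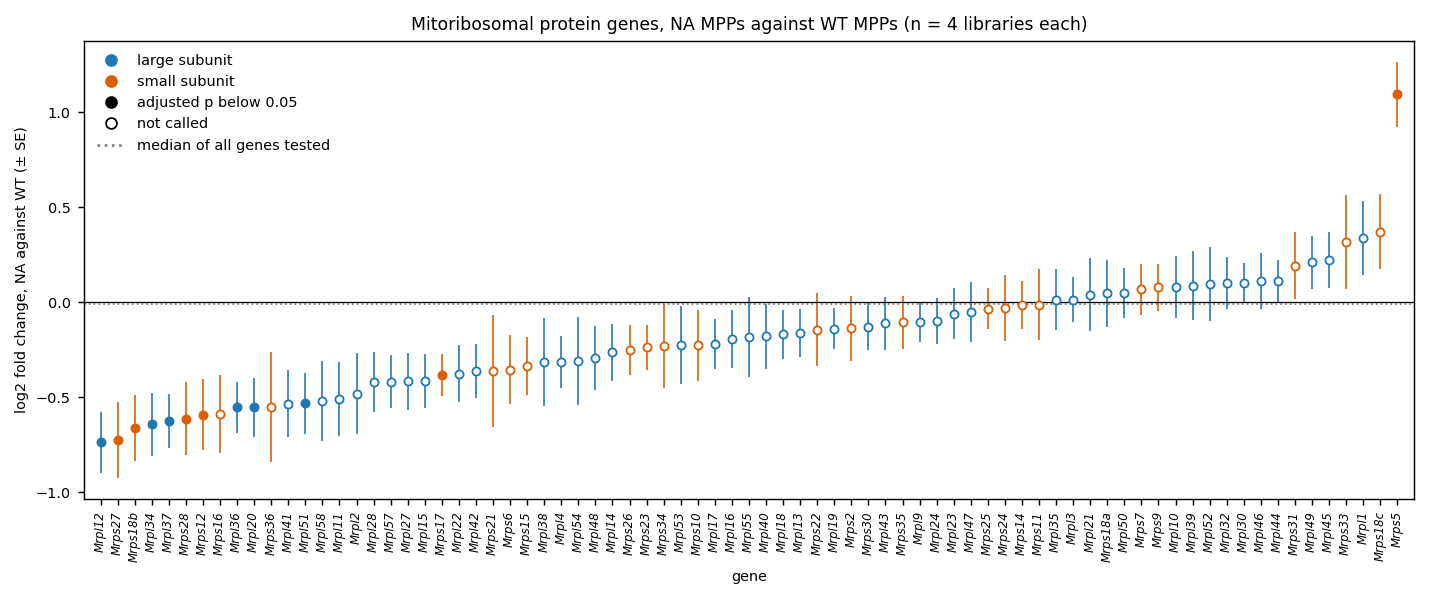
The log2 fold change of NA against WT for each of the 77 genes (points, ± SE from limma, n = 4 libraries a group), ordered by size, with large subunit genes in blue, small subunit genes in orange and filled points for an adjusted p below 0.05. The 11 filled points on the left lie between -0.74 and -0.38, the dotted line for all genes lies at -0.011, and Mrps5 stands alone on the right at 1.10.

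Mrps5, whose product lines the path of the mRNA into the small subunit and whose bacterial counterpart affects decoding accuracy, was the 1 member that rose. Its normalised counts were 163, 184, 175 and 156 in the NA libraries and 93.2, 88.3, 66.0 and 70.1 in the WT libraries. Every NA library was above every WT library, with means of 170 ± 12.4 and 79.4 ± 13.4 (SD, n = 4). The log2 fold change was 1.10 ± 0.17 (SE, limma adjusted p = 0.0007), and it held in each of 22 alternative settings, with adjusted p from 0.00056 to 0.018. The gene lies at chr2:127587222-127606829 on the plus strand of the mm10 build, and none of its exons overlaps another annotated gene. Zfp661, a zinc finger gene that starts 128 bases away on the opposite strand, fell (log2 fold change -0.92, limma adjusted p = 0.034), from a mean of 49.9 in WT to 26.5 in NA. Per kilobase of annotated transcript Mrps5 had the lowest mean level of the 77 members, 27.8, and 2.13 times as many normalised counts in NA as in WT.

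Among large subunit genes, 6 of 50 (12%) fell and none rose, with a median of -0.18, where 7.87% of all genes tested were called lower and 10.1% higher. At an unadjusted p below 0.05 there were 17, each of them lower, where 3716 of all 11451 genes passed that limit and 1784 of them were lower. The product of Mrpl12 forms the flexible stalk that recruits translation factors and also binds the mitochondrial RNA polymerase. Mrpl12 had the lowest log2 fold change of all members. It stood at 145, 122, 175 and 130 in NA and at 212, 239, 290 and 214 in WT libraries, with no overlap (log2 fold change -0.74 ± 0.16, SE, limma adjusted p = 0.0060). The other stalk genes were not called: Mrpl11, at the stalk base, had -0.51 (adjusted p = 0.087), and Mrpl10, the stalk's anchor, had 0.080 (adjusted p = 0.77). Mrpl10 was below 0 without the fourth WT library. Mrpl12 itself lost its call in 1 of 22 alternative settings, that without the fourth libraries of both groups.

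Mrpl34, a small protein with a bacterial counterpart, stood at 151, 113, 101 and 98.0 in NA and at 179, 171, 184 and 178 in WT (log2 fold change -0.64 ± 0.16, SE, limma adjusted p = 0.016). Mrpl37, a protein that mitochondria gained, stood at 157, 140, 114 and 136 in NA and at 211, 217, 214 and 198 in WT (-0.63 ± 0.14, adjusted p = 0.0084). In both genes the WT libraries lay close together and the groups did not overlap. Mrpl36, the counterpart of the smallest bacterial ribosomal protein, stood at 231, 173, 194 and 231 in NA and at 263, 316, 304 and 331 in WT (-0.55, adjusted p = 0.012). Mrpl20, which binds the ribosomal RNA early in assembly in bacteria, stood at 184, 121, 196 and 165 in NA and at 256, 237, 249 and 224 in WT (-0.55, adjusted p = 0.026). These groups also did not overlap. Mrpl51, gained by mitochondria, stood at 149, 111, 114 and 117 in NA and at 176, 211, 157 and 167 in WT (-0.53, adjusted p = 0.034).

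Among small subunit genes, 5 of 27 (18.5%) fell and Mrps5 rose, with a median of -0.23, or -0.18 without Mrps36. The shares over all genes tested were 7.87% called lower and 10.1% called higher. Mrps27, a pentatricopeptide repeat protein gained by mitochondria, stood at 61.6, 71.4, 88.6 and 52.0 in NA and at 115, 113, 109 and 108 in WT (log2 fold change -0.72 ± 0.20, SE, limma adjusted p = 0.022). The 4 WT libraries lay close together and all 4 NA libraries were below them. Mrps28, the counterpart of bacterial S1, stood at 101, 66.7, 102 and 85.0 in NA and at 111, 152, 130 and 147 in WT (-0.61, adjusted p = 0.039). Mrps12, a protein of the decoding centre, stood at 114, 93.1, 124 and 98.0 in NA and at 217, 152, 126 and 162 in WT (-0.59, adjusted p = 0.040). For Mrps12 the highest NA and the lowest WT library nearly met. Mrps17, which binds the small ribosomal RNA, had the smallest of the falls, at 290, 337, 285 and 333 in NA and 388, 437, 418 and 381 in WT (-0.38, adjusted p = 0.027).

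**Figure D3:**
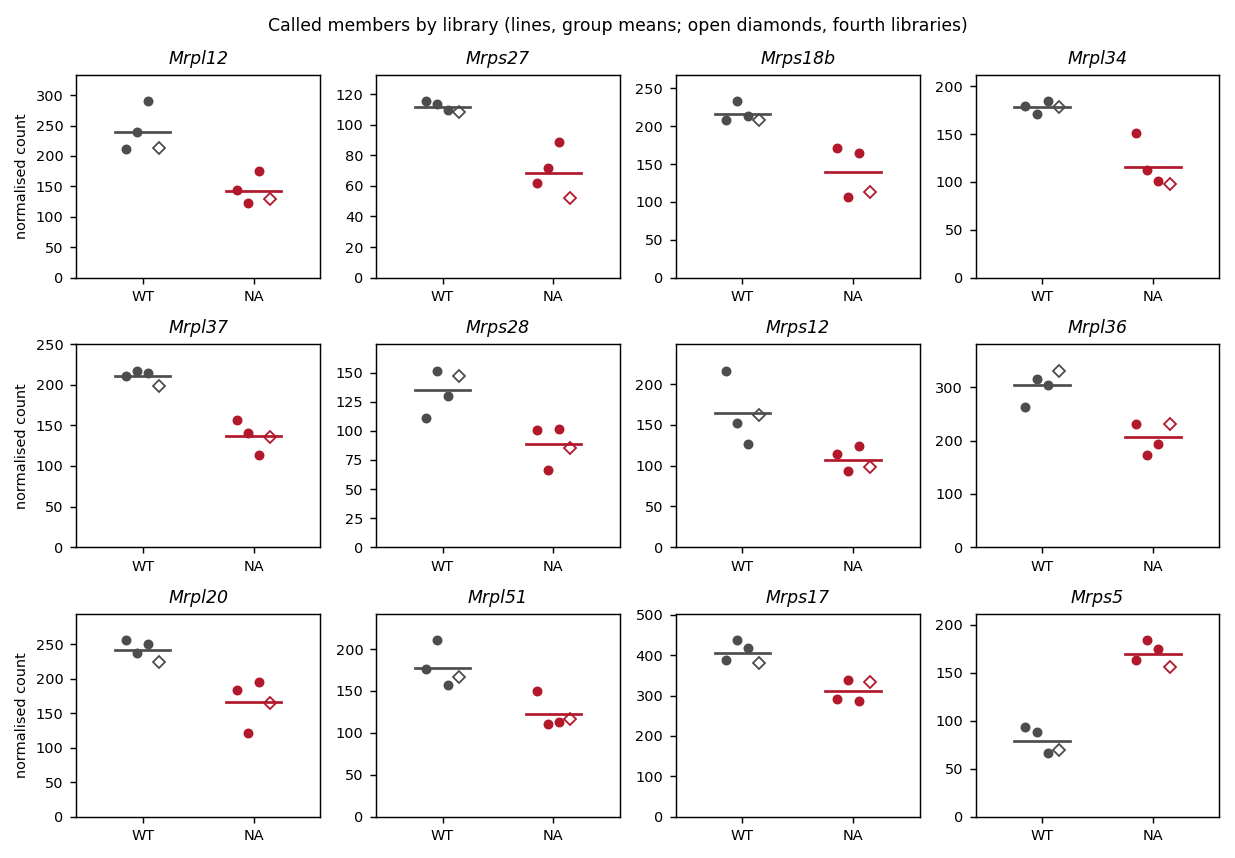
Normalised counts of the 12 called members in each WT (grey) and NA (red) library, with lines for the group means (n = 4) and open diamonds for the fourth libraries. In every panel the groups do not overlap, and only Mrps5 is higher in NA, with 156 to 184 against 66.0 to 93.2.

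The mammalian mitoribosome has 3 homologues of bacterial S18, 1 of them in the large subunit. Mrps18b stood at 172, 106, 164 and 113 in NA and at 208, 233, 214 and 208 in WT (log2 fold change -0.66 ± 0.17, SE, limma adjusted p = 0.017). It was the called gene of the 3. Mrps18c had 0.37 ± 0.20 (SE, adjusted p = 0.20) and Mrps18a 0.047 ± 0.18 (SE, adjusted p = 0.88), and in both the groups overlapped. Mrps18a was below 0 when libraries were scaled to equal totals. The differences between these genes were not tested.

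At the exit of the peptide tunnel, where the new chain meets the inner membrane, none of 7 listed large subunit genes was called. Their median was -0.059, with 1 at an unadjusted p below 0.05, a limit that 3716 of all 11451 genes passed. Mrpl22 was lowest at -0.38 (limma adjusted p = 0.10), Mrpl17 had -0.22, Mrpl24 -0.10, Mrpl23 -0.059 and Mrpl39 0.088. Mrpl44 had 0.11, and Mrpl45, which tethers the ribosome to the membrane, was highest at 0.22. The list left out Mrpl47, which also lies at the exit (-0.051, limma adjusted p = 0.86). Mrpl45 stood at 292, 295, 439 and 308 in NA libraries and at 326, 282, 277 and 247 in WT, and was at 0.084 without the third NA library. In the central protuberance none of 5 genes was called and none had an unadjusted p below 0.05: Mrpl38 had -0.32, Mrpl48 -0.29, Mrpl40 -0.18, Mrpl18 -0.17 and Mrpl46 0.11. Mrpl58, a release factor built into the large subunit that frees stalled chains, had -0.52 ± 0.21 (SE, adjusted p = 0.099) with overlapping groups.

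By origin, 8 of 46 members (17.4%) with a listed bacterial counterpart fell and 1 rose, with a median of -0.19. Among all genes tested 7.87% were called lower and 10.1% higher. Of the 31 members without a listed bacterial counterpart, Mrps36 among them, 3 (9.68%) fell, with a median of -0.18. These 31 also held Mrpl47 (-0.051, not called), a counterpart of bacterial L29 that the list left out. Whether these classes differ was not tested. The groups did not overlap for 18 members in the lower direction, where 10.5% of all genes did not, and for 2 in the higher direction, where 11.5% did not. The 7 uncalled genes among the 18 were Mrps16 (-0.59), Mrpl41 (-0.53), Mrpl57 (-0.42), Mrpl27 (-0.42), Mrpl15 (-0.41), Mrpl22 (-0.38) and Mrps23 (-0.24). The adjusted p of Mrpl41 and of Mrpl57 rounded to 0.050, above the threshold. The uncalled member without overlap in the higher direction was Mrps31 (log2 fold change 0.19, adjusted p = 0.48).

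Mean levels over the 8 libraries ran from 30.0 normalised counts for Mrps36, the member nearest to the minimum, to 599 for Mrps25. Just outside the rule stood the pseudogene Mrpl23-ps1, at a mean of 20.4. Levels per kilobase used the length of a single annotated transcript per gene, chosen without regard to the isoform expressed. On that scale the highest members were Mrpl30 (400.3), Mrpl42 (355) and Mrpl52 (347), and the lowest were Mrps5 (27.8), Mrpl1 (32.2) and Mrpl11 (39.8), around a median of 124. Among WT libraries the widest spread, as the SD of log2 values, was that of Mrps21 (0.47), Mrps22 (0.37) and Mrpl38 (0.35). Mrps21 stood at 61.3, 29.4, 39.8 and 55.9 in WT and 29.5 to 42.9 in NA libraries, which overlapped. The median SD over members was 0.16 in WT and 0.21 in NA, and over all genes 0.22 and 0.25. It was larger in NA than in WT for 54 of 77 members and for 58.0% of all genes.

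The fold change of a member moved with the GC content of its transcript, as it did over all genes. Spearman's rho between GC content and log2 fold change was -0.33 across 77 members and -0.27 across 11167 genes, which share the same 8 libraries and are no independent replicates. With members split by GC content into 3 ranges of 26, 25 and 26, from low to high, the medians were -0.078, -0.17 and -0.31. All genes split at the same GC limits had medians of 0.11, -0.024 and -0.15. Their lowest and highest ranges were open-ended, whereas members ran from 39.6% to 60.6% GC. In each of the 3 ranges the median of the members lay below that of all genes. With the GC trend of each library removed, 11 members were again called lower and 1 higher (7.5% and 9.09% of all genes). The lower calls of both fits shared 8 genes, while Mrpl34, Mrps28 and Mrps12 had adjusted p of 0.054, 0.067 and 0.098 by limma. The annotated transcripts of members were short, with a median of 1316 bases against 3003 over all genes. With the length trend removed the median fold change over members was -0.10, with 8 called lower, where 873 of all 11451 genes were.

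**Figure D4:**
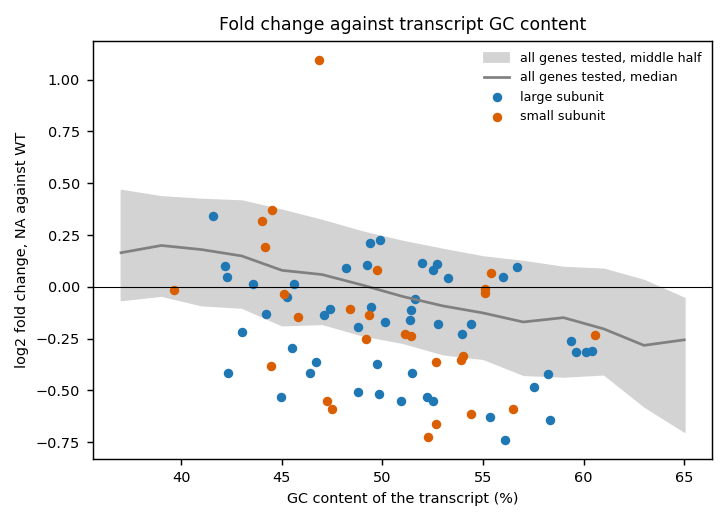
The log2 fold change of each member against the GC content of its transcript in percent (blue, large subunit; orange, small subunit), over the median (grey line) and middle 50% (grey band) of all genes tested in bins of GC content. Members with a high GC content lie lowest, with a median of -0.31 in the highest of 3 ranges, and Mrps5 stands apart at 1.10.

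Promoters of nuclear genes for mitochondrial proteins are known for sites of NRF1, of ETS factors such as GABP and of YY1, and MYC reads the E-box. RefSeq windows (GRCm38.p6) from 250 bases before to 50 after the start matched 68 of 77 members. The upstream 200 bases of 4 genes that fell are given 5′ to 3′ on the gene's strand, chosen because each holds a match to 1 of these motifs, shown in capitals: NRF1 in Mrpl12 (chr11:120484437-120484636), ETS in Mrps27 (chr13:99344586-99344785) and Mrpl34 (chr8:71464726-71464925), and the E-box in Mrpl20 (chr4:155802678-155802877), all on the plus strand.
Mrpl12: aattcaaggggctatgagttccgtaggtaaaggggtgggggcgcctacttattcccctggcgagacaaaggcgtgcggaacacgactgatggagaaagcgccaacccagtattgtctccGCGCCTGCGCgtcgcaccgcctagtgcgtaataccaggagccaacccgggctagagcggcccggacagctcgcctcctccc
Mrps27: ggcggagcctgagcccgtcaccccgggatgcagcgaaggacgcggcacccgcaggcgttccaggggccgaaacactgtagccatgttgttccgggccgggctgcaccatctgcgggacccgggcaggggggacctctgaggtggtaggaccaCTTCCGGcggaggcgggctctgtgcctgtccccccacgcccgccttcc
Mrpl34: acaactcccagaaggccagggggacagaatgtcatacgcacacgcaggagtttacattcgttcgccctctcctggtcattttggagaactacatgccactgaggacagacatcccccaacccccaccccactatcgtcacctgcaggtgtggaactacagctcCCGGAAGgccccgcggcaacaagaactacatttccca
Mrpl20: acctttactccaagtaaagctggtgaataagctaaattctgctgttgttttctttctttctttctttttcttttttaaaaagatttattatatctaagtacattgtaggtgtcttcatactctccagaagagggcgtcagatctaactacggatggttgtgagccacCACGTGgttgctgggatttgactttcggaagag

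The NRF1 letters, GCGCA and GCGC with 1 base of any kind between them, were in 19.1% of the members' windows and in 11.5% of 8795 windows of all genes tested, on either strand. The ETS letters CCGGAAG were in 33.8% and 20.05%, and the YY1 letters AAGATGGCG in 11.8% and 3.66%. The E-box CACGTG was in 7.35% of the members' windows and in 10.7% of all. Members that fell held the NRF1 letters in 1, the ETS letters in 5, the YY1 letters in 3 and the E-box in 3 of 10 windows. Mrpl36 gave 1 of these YY1 and 1 of these E-box matches, and its RefSeq start lay 2496 bases from the gene's annotated 5′ end. For the uncalled Mrpl35 and Mrps24 that distance was 3185 and 7979 bases. The window of Mrps5 held none of the 4 motifs. A match is a description of letters and not a site.

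Many members shared a promoter region with a neighbour: 17 of 77 (22.1%) had a divergent protein-coding neighbour starting within 1000 bases, against 9.45% of 10740 tested coding genes. In these 17 pairs 6 members and 2 neighbours were called, and both only in the pair of Mrps5 and Zfp661, in opposite directions. Of all 77 members 15.6% were called, and of all genes tested 17.9%. Mrps27 fell beside Ptcd2 (-0.28, limma adjusted p = 0.19), Mrps18b beside Ppp1r10 (-0.31, adjusted p = 0.35) and Mrps12 beside Sars2 (0.30, adjusted p = 0.42), the mitochondrial seryl-tRNA synthetase. Mrpl37 fell beside Cyb5rl (1.09, adjusted p = 0.050, above the threshold). The exons of 25 members overlap another annotated gene, among them those of Mrpl36 and Ndufs6, a complex I subunit on the opposite strand (log2 fold change -0.56, adjusted p = 0.057). With a kit that does not mark strand, reads of such overlaps cannot be told apart.

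The rest of the mitochondrial translation system was read from lists of 66 genes, of which 65 were tested. Of these 7 fell and 1 rose, with a median of -0.21. The share called, 12.3%, was below the 17.9% of all genes, and the share lower was 10.8% against 7.87%. The count of 8 calls was 1 without the fourth libraries of both groups, 2 without the fourth NA, 4 without the fourth WT and 5 without the first or the third WT library. Over all genes tested 1152 were called higher and 901 lower in the main fit, and 379 and 145 without the fourth libraries of both groups. Calls were 675 and 450 without the fourth NA, 801 and 478 without the fourth WT, 932 and 628 without the first WT and 1008 and 669 without the third WT library. Among 5 mitoribosomal proteins with other names 2 fell, both of the small subunit: Aurkaip1, with 217 to 243 in NA and 311 to 343 in WT libraries (-0.47, limma adjusted p = 0.0098), and Ptcd3, with 267 to 328 and 384 to 437 (-0.38, adjusted p = 0.028). Neither overlapped between groups.

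Of 25 assembly factors 4 (16%) fell and none rose, with a median of -0.23, where 7.87% of all genes tested were called lower and 10.1% higher. Malsu1, which keeps the immature large subunit from joining, stood at 57.9 to 71.1 in NA and 89.7 to 131 in WT (-0.76, limma adjusted p = 0.016). Mettl17, a small subunit assembly factor, had -0.65 (adjusted p = 0.035), and neither gene overlapped between groups. Fastkd2, which binds the large ribosomal RNA, had -0.75 (adjusted p = 0.041) and Dhx30, a helicase, -0.49 (adjusted p = 0.021), with an overlap between groups in each. Of 20 genes for charging mitochondrial tRNAs 1 (5%) fell, a share below that of all genes. It was Qrsl1, a subunit of the enzyme that makes glutaminyl-tRNA (-0.66, adjusted p = 0.041). Each of these 5 calls was lost without the fourth libraries, with adjusted p from 0.12 to 0.14, while the log2 fold changes were -0.79 for Malsu1, -0.76 for Mettl17, -0.85 for Fastkd2, -0.46 for Dhx30 and -0.76 for Qrsl1. Aurkaip1 and Ptcd3 also lost theirs, at -0.50 and -0.42.

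Among 15 translation factors Tsfm rose and none fell, where 10.1% of all genes tested were called higher and 7.87% lower. Tsfm, the exchange factor that recharges the elongation factor Tufm, stood at 168, 161, 154 and 142 in NA and at 56.8, 92.9, 64.9 and 55.9 in WT libraries (log2 fold change 1.22 ± 0.19, SE, limma adjusted p = 0.00079). The groups did not overlap, and without the fourth libraries it was still called (adjusted p = 0.018). Of 6 genes of mitochondrial transcription 0 were called by limma, with 0 at an unadjusted p below 0.05 (3716 of all 11451 genes) and a median of -0.017. Of 11 regulators of mitochondrial genes 1 (9.09%) rose, a share near that of all genes. It was Myc, with 576 to 851 in NA and 261 to 527 in WT libraries (1.04, adjusted p = 0.0018).

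The mRNAs that the mitoribosome translates were mostly above 0. Of 12 mitochondrially encoded mRNAs tested 3 (25%) rose and 1 (8.33%) fell, with a median of 0.20, where 10.1% of all genes tested were called higher and 7.87% lower. With the GC trend removed, the median was -0.013 with 1 higher and 2 lower, where 9.09% and 7.5% of all genes were. The median GC content of these mRNAs was 36.5% against 49.97% for all genes. mt-Nd5, a complex I subunit, stood at 10082, 11677, 6053 and 10875 in NA and at 4884, 6018, 4267 and 5450 in WT libraries (0.88, limma adjusted p = 0.0029). NA library 3 was far below the other NA libraries and just above the highest WT library. mt-Cytb had 0.37 (adjusted p = 0.018), mt-Co1 0.34 (adjusted p = 0.041) and mt-Nd3 -0.77 (adjusted p = 0.0095), with overlapping groups in each. Without the fourth libraries only mt-Nd5 of these 4 was still called (adjusted p = 0.025).

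**Figure D5:**
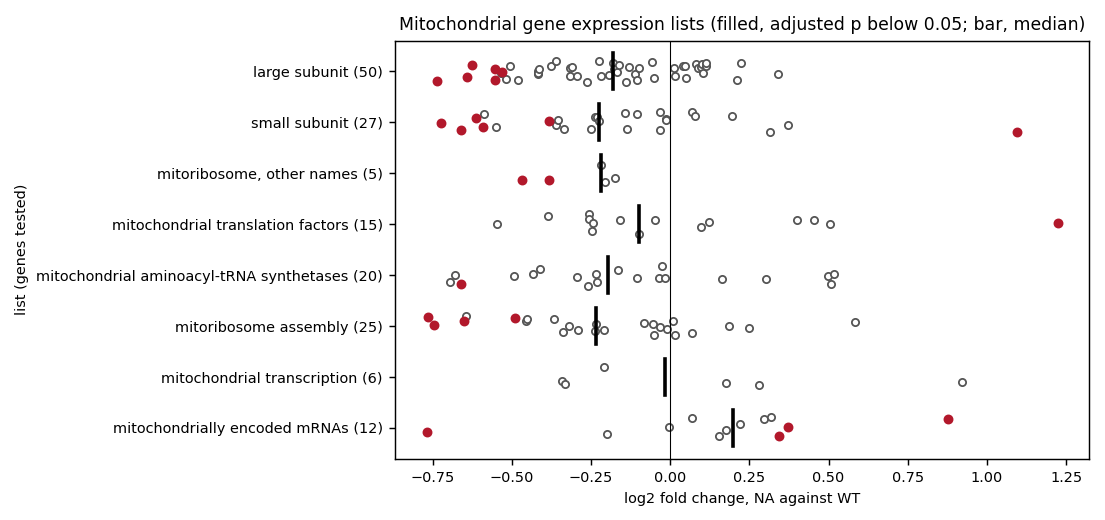
The log2 fold change of NA against WT for each gene (points, filled for an adjusted p below 0.05) in the 2 subunits and 6 lists of mitochondrial gene expression, with a bar for each median and the number of genes tested in brackets. Medians lie at -0.18 and -0.23 for the subunits, -0.23 for the assembly factors and 0.20 for the mitochondrially encoded mRNAs.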

How the data were processed

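The authors sequenced amplified cDNA of 1000 sorted MPPs a library (Nextera XT, not stranded). Per the labels bcl2fastq, RSEM and DESeq2 were used with the mm10 build. The deposited gene table was named as counts, but each library's values were whole multiples of 1 step for 98.4% to 98.9% of values from 0.5 to 20 (tolerance 0.05), so the values were read as a signal: reads that the authors had divided by 1 size factor per library, with RSEM's fractional estimates. Depth was estimated from that step, and limits of counting error follow from it. Column names gave each sample's group.

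The main test was limma 3.58.1 in R 4.3.3 on log2(value + 1) with a variance trend, over 11451 genes with a value of at least 10 in at least 4 of 8 libraries, with Benjamini-Hochberg adjustment and a threshold of 0.05. Groups were not blocked or adjusted. The fit was tested on simulated data. Gene positions, transcript length and GC content came from the GRCm38 annotation. Length and GC content were those of a single transcript per gene, the principal isoform where marked and otherwise the longest. Which isoform was expressed was not examined. Tables were made with Python 3.11.15, pandas 2.3.3, numpy 2.4.6 and scipy 1.17.1, and plots with matplotlib 3.10.9.

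Members named with values were those called, those in the role groups, the 3 highest and 3 lowest per kilobase, the 3 with the widest WT spread, those next to the minimum of the rule, and the called genes of the partner lists. Others were named after their values were seen, among them the uncalled genes whose groups did not overlap and the neighbours. The value of 1 marker gene is not reported here. The members and lists were chosen with earlier results of these data known. Alternatives were pseudocounts, filters, scalings, leaving out libraries, a replicate block, depth class and GC or length trends.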

Additional observations from a re-analysis of the deposited data

Results flagged for a closer look

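In 82 groups of 4 values that were tested with Dixon's rule for a value far from the rest, 6 were flagged, and chance flags about 1 in 20 groups. Mrpl22 was at 212 in the third WT library and at 179 to 185 in the others. The third NA library was far above the other NA libraries for Mrpl30, with 451 against 383 to 389, and for Mrpl45, with 439 against 292 to 308. In the same library the share of mitochondrially encoded reads was 6.91%, against 9.27% to 9.47% in the other NA libraries. Mrpl51, which fell, was at 149 in the first NA library and at 111 to 117 in the others, still below the lowest WT library at 157. The fourth NA library had an estimated 3887794 reads, and the other NA libraries 4909318 to 4916957. The cause of these values was not tested.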

How the results depend on the processing

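The count of members that rose was 1 in each of 22 alternatives. The count that fell, 11, became 17 with libraries scaled to equal totals and 0 without the fourth library of both groups, and ran from 3 to 17 when 1 library was left out. Lower calls over all genes tested ran from 450 to 1001 when 1 library was left out. The median over members, -0.18, became -0.25 with equal totals, -0.166 without the fourth libraries of both groups, -0.159 with the GC trend removed and -0.10 with the length trend removed, and ran from -0.215 to -0.168 when 1 library was left out. Equal totals moved the median of all genes to -0.079 and the split of their calls from 1152 higher and 901 lower to 927 and 1313. The 8 partner genes called became 5 without a filter, 4 without a variance trend, 1 without the fourth libraries of both groups, 4 with depth class as a covariate, and 2 to 8 when 1 library was left out. All genes called went to 825 higher and 595 lower without a variance trend and to 379 and 145 without the fourth libraries.

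With the replicate number as a block, 10 members fell, 1 rose and 5 partner genes were called. Libraries of the same number deviated together by r = 0.087, 0.027, 0.013 and 0.158, so the numbers were not taken as a pairing.

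Uncalled members near 0 changed sign. With 1 library left out Mrpl10 ran from -0.0069 to 0.143, Mrpl23 from -0.133 to 0.0083, Mrpl39 from -0.027 to 0.219, Mrpl52 from -0.071 to 0.195 and Mrps18a from -0.037 to 0.131. Without the fourth libraries of both groups Mrpl10 was at -0.012 and Mrps18a at -0.035. Mrps18a was at -0.021 with equal totals, and Mrpl23 at 0.11 with the length trend removed. The cause of these changes was not tested. Planned count tests were not run, because whole reads were not recovered over the full range of values. Depth limits the least abundant members most, and none stood below 10 in any library.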
